A study of Mus musculus with 4 samples.

Results

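The 8 genes described here encode enzymes, a transporter and a secreted protein of arginine, itaconate and nitric oxide metabolism: Acod1, Arg1, Arg2, Nos2, Slc7a2, Ass1, Odc1 and Chil3. They were taken by name from 55335 genes in the deposited tables, and all 8 were found. They were selected on their function with the counts and genotype differences of these same libraries already known, so their differences are given as a description, without a test of their own.

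Macrophages and other myeloid cells use these genes in inflamed tissue. The transporter encoded by Slc7a2 takes up arginine, which nitric oxide synthase 2 (Nos2) turns into nitric oxide and citrulline, and which the arginases (Arg1 in the cytosol, Arg2 in mitochondria) split into urea and ornithine. Ass1 catalyses the first step that rebuilds arginine from citrulline, and Odc1 turns ornithine into putrescine, the first polyamine. Acod1 makes itaconate from a citrate-cycle intermediate in activated macrophages, and Chil3 (Ym1) is a chitinase-like protein without chitinase activity that mouse macrophages and neutrophils secrete.

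RNA from cells labelled as CD4+ T cells of dorsal skin was sequenced in 4 libraries. All mice were 8 to 12 weeks old and carried floxed Mettl3 alleles, and all received imiquimod cream (5%) on the back for 5 days, at 15 or 62.5 mg a day, and which mouse had which amount is not stated in the labels. The control libraries (2) came from Mettl3fl/fl mice, and the knockout libraries (2) from Mettl3fl/fl;Cd4-Cre mice, in which Cre under the Cd4 promoter acts in developing T cells. The comparison asks which transcripts differ in these cells when Mettl3, the catalytic subunit of the m6A writer of RNA, is deleted in T cells. Libraries were numbered only to name them, and the labels do not state the number of mice per library, so the spread between libraries may be technical.

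Depth was between 3614418 and 4537006 counted fragments per library. Mettl3 had 195 and 49 fragments in controls 1 and 2 and 121 and 158 in knockouts 1 and 2. Of these fragments 89.9% lay in retained-intron entries and none in entries of protein-coding transcripts, and the labels do not state which exons were deleted, so these counts do not check the deletion. The markers did not follow the label of CD4+ T cells. Cd4 had 777 and 0 fragments in controls 1 and 2, and 420 and 9 in knockouts 1 and 2. Of these fragments 99.3% lay in 1 exon entry. Cd3e had 282 and 1 fragments in controls and 80 and 42 in knockouts. Trac, the T cell marker with the highest mean CPM, was present in every library, with 906 and 277 fragments in controls and 140 and 108 in knockouts. The 16 T cell markers summed to 389 to 1258 CPM (counts relative to library size with TMM factors, the unit of all levels here) in controls and 198 to 374 in knockouts, against 11035 to 22742 and 32860 to 37549 CPM for 18 macrophage and monocyte markers. Control 2 stood apart, with fragments of 11424 genes against 16273 to 20100 in the others, and with 28593 CPM of keratinocyte markers against 1414 to 3002. In such bulk samples, fewer cells of a type and less RNA per cell cannot be told apart.

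Upstream sequences are shown for Acod1 and Chil3, because among the 4 members with a RefSeq promoter entry (these 2, Ass1 and Odc1) they were the ones whose genotypes did not overlap in level. They are RefSeq sequences of GRCm38.p6, cut where the first deposited exon begins. The Acod1 window is chr14:103046762-103046976 on the plus strand (215 bases), and the Chil3 window is chr3:106167565-106167814 on the minus strand (250 bases). Capitals mark matches, on either strand, to any of 6 short motifs.
Acod1: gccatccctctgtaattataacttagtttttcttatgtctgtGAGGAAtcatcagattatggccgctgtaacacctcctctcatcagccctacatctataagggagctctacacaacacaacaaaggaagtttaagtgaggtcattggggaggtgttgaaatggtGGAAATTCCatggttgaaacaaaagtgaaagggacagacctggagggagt
Chil3: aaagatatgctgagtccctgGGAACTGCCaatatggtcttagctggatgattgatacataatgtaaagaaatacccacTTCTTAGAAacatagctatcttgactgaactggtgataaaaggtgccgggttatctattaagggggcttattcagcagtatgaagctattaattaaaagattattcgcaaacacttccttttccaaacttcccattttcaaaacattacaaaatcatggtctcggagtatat
The motif searched for NF-kappa B was GGNNNTTCC. It matched once in Acod1, starting 50 bases upstream of the gene's first exon, and once in Chil3, 230 bases upstream, and 13.1% and 15.7% of all promoters held it in windows of the same length. For STAT factors TTCNNNGAA was searched, which matched once in Chil3, 172 bases upstream (7.02% of promoters). The PU.1 letters GAGGAA matched once in Acod1, 173 bases upstream (20.0%). The C/EBP motif TTGCNNAA had no match in either window. Neither did the AP-1 motif TGANTCA, nor the TATA box letters TATAAA. No 2 of these matches overlapped. A match describes letters and does not show binding. The motifs were chosen after the sequences were seen, so the shares of promoters do not weigh these matches.

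The m6A writer prefers GGAC followed by a pyrimidine or adenine, most often GGACT, so this sequence was counted in the longest protein-coding transcript of each gene (GENCODE M21). Acod1 held 2 in 2623 bases, or 0.762 per kilobase, Chil3 2 in 1539 (1.30) and Arg1 2 in 1477 (1.35). The median over 9918 tested protein-coding genes was 1.04 per kilobase, with quartiles of 0.640 and 1.51. Arg2 and Odc1 held none. Nos2 held 0.477, Slc7a2 0.379 and Ass1 0.590 per kilobase. All 6 occurrences in Acod1, Chil3 and Arg1 lie in the coding sequence and are shown with their flanks, the motif in capitals, numbered from the transcript's first base. Methylation was not measured, so these are sequence matches only.
Acod1 from base 585: tgtggtggGGACTctgggaag
Acod1 from base 1066: cccttcccGGACTcagagcat
Chil3 from base 454: ctcaacctGGACTggcagtac
Chil3 from base 938: atgaatcaGGACTcctggctt
Arg1 from base 930: tcctttcaGGACTagatatca
Arg1 from base 1060: taagccagGGACTgactacct

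Over all 12434 genes tested, the comparison of knockout with control libraries called 0 genes, or 0% (edgeR quasi-likelihood test, adjusted p under 0.05), with 187 at an unadjusted p under 0.05. DESeq2 called 17 and limma-voom 0. None of the 7 members that could be tested was among the calls of these 3 tools, and Slc7a2 had too few fragments to be tested. Both knockout libraries lay above both control libraries for 4 members, Acod1, Arg2, Nos2 and Chil3, as they did for 19.5% of all tested genes, and below for none, as for 11.2%. The count was also 4 without control 2 and 7 without control 1, while the share of all tested genes was then 28.8% and 54.5%. The median log2 fold change of the 7 members was 1.45, beside 0.20 over all tested genes, and all 7 values were positive, as were 56.9% of all.

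**Figure D1:**
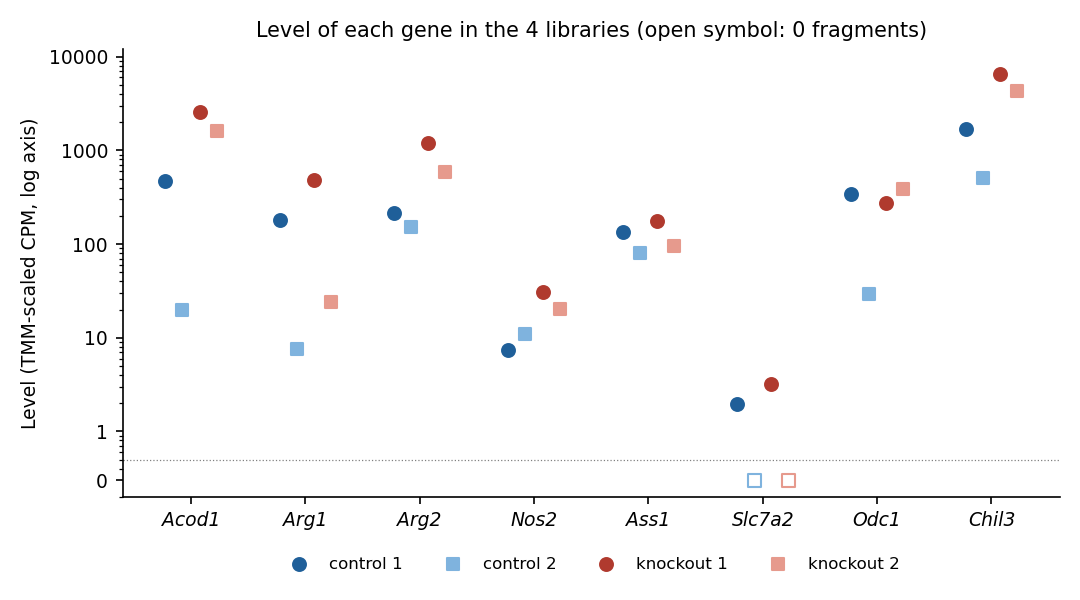
Level of each of the 8 genes in TMM-scaled CPM on a log axis, with 1 symbol per library (blue for controls, red for knockouts) and open symbols under the dotted line for 0 fragments. Both red symbols lie above both blue ones for Acod1, Arg2, Nos2 and Chil3, while Arg1 spans 7.65 to 486 CPM and Slc7a2 is at 0 in control 2 and knockout 2.

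Acod1, the itaconate-forming enzyme (ENSMUSG00000022126, GRCm38 chromosome 14, 103046977 to 103056573, plus strand), had the largest fitted difference of the 7 tested members. Its levels were 475 and 19.5 CPM in controls 1 and 2, and 2562 and 1616 CPM in knockouts 1 and 2. The groups did not overlap, and the lower knockout was at 3.40 times the higher control. The controls differed 24.3-fold from each other and the knockouts 1.59-fold. The fitted log2 fold change was 3.08 (standard error 1.42), or 6.81 without control 1 and 2.13 without control 2.

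The exon entries of Acod1 showed an irregular pattern in control 2. The gene has 5 entries, and the last (103054512 to 103056573, with the 3′ untranslated region) held 85.3% of the fragments in control 1 (exact 95% interval 83.8 to 86.8). The corresponding shares were 82.4% (81.6 to 83.1) for knockout 1 and 87.7% (86.9 to 88.5) for knockout 2. In control 2 it held 0 of 74 fragments, with an upper limit of 4.86%. Without this entry the levels were 69.6 and 19.5 CPM in controls and 452 and 198 in knockouts, so the groups still did not overlap and the ratio of their means was 7.29, against 8.45 with all entries. Intervals here cover counting error only.

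**Figure D2:**
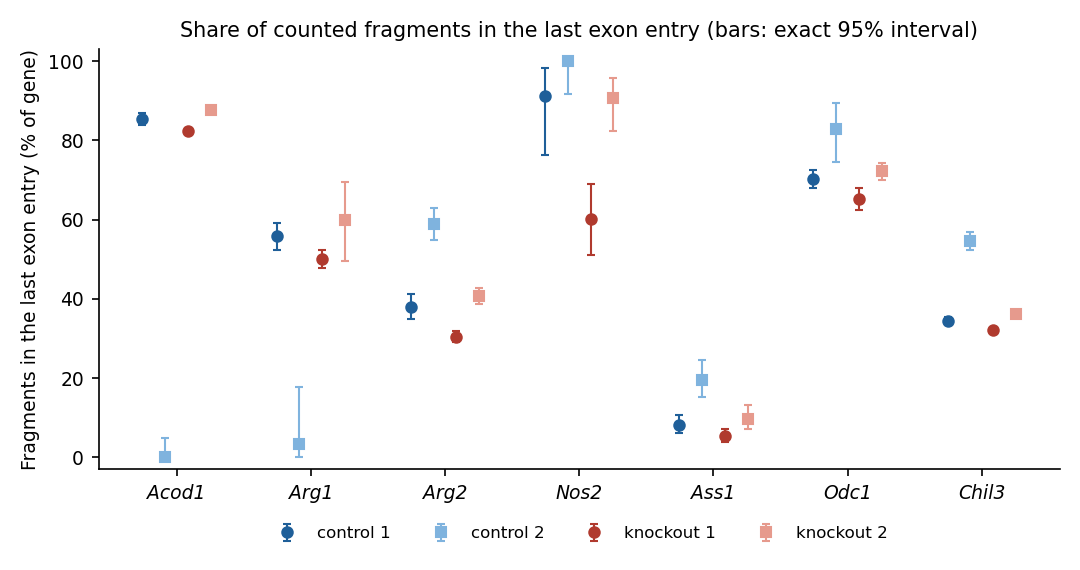
Share of each gene's counted fragments that lay in its last exon entry with fragments, in percent, with 1 symbol per library and bars for exact 95% intervals. Control 2 lies apart in both directions: at 0% for Acod1 and 3.45% for Arg1, and above the other libraries for Arg2 (58.9%) and Chil3 (54.6%).

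Of the 2 arginases, Arg2 separated the groups and Arg1 did not. Arg2, the mitochondrial form (ENSMUSG00000021125, chromosome 12, 79130777 to 79156301, plus strand), was at 214 and 153 CPM in controls 1 and 2, and at 1196 and 582 CPM in knockouts 1 and 2. Both knockouts lay above both controls, with the lower knockout at 2.71 times the higher control, and the libraries within a genotype differed by 1.40-fold and 2.06-fold. Its log2 fold change was 2.27 with the smallest standard error of the 7 tested members, 0.63, and it lay between 1.70 and 2.77 with any 1 library left out. All 7 exon entries of Arg2 that held fragments had both knockouts above both controls, and without the last entry the ratio of group means was 6.01 against 4.84 with it.

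Arg1, the cytosolic arginase known from alternatively activated macrophages (ENSMUSG00000019987, chromosome 10, 24915221 to 24927484, minus strand), was at 179 and 7.65 CPM in controls 1 and 2, and at 486 and 24.1 CPM in knockouts 1 and 2. Each genotype thus had 1 high and 1 low library, 23.4-fold apart in controls and 20.1-fold in knockouts, and the groups overlapped. The same 2 libraries, control 1 and knockout 1, had the higher counts of Cd4. Trac did not follow this, with 277 fragments in control 2 against 140 in knockout 1. The fitted log2 fold change of 1.45 (standard error 1.80) turned to -1.96 without knockout 1 and became 5.12 without control 1. Of 29 fragments in control 2, 28 lay in 1 exon entry of 105 bases (24916355 to 24916459), an entry that held 19, 45 and 1 fragments in control 1, knockout 1 and knockout 2.

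Nos2, the inducible nitric oxide synthase (ENSMUSG00000020826, chromosome 11, 78920787 to 78960254, plus strand), had few fragments in every library: 34 and 42 fragments in controls 1 and 2 and 123 and 85 in knockouts 1 and 2, or 7.42, 11.1, 30.7 and 20.1 CPM. The groups did not overlap, and the fitted log2 fold change was 1.45 (standard error 1.30). Of its 59 exon entries, 54 share all their bases with another entry and held no fragment, and 3 held fragments, and in control 2 all 42 fragments lay in the last one (78959654 to 78960254). In that entry alone the levels were 6.77 and 11.1 CPM in controls and 18.5 and 18.2 in knockouts.

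Of the genes that supply arginine, Ass1 did not separate the genotypes and Slc7a2 could hardly be counted. Slc7a2, the inducible arginine transporter (ENSMUSG00000031596, chromosome 8, 40862396 to 40922308, plus strand), had 9 and 0 fragments in controls 1 and 2, and 13 and 0 in knockouts 1 and 2, all in 1 of its 49 exon entries. Of these entries 44 share all their bases with another entry and held no fragment, so the counts rest on the few others and do not give the level of the gene. A count of 0 allows up to 0.792 CPM in control 2 and 0.709 in knockout 2 for the entries that can be counted. Ass1, argininosuccinate synthase (ENSMUSG00000076441, chromosome 2, 31470207 to 31520672, plus strand), was at 133 and 79.5 CPM in controls and 178 and 94.3 in knockouts. The groups overlapped, with a log2 fold change of 0.36 and a standard error of 0.73, which became -0.15 without knockout 1. Of the 10 exon entries of Ass1 with at least 40 fragments, none had both knockouts above both controls and 1 had both below.

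Odc1, ornithine decarboxylase (ENSMUSG00000011179, chromosome 12, 17544794 to 17551505, plus strand), was at 340 and 29.3 CPM in controls 1 and 2, and at 276 and 388 CPM in knockouts 1 and 2. Control 2 alone was low, 11.6-fold under control 1, while the other 3 libraries lay within 276 to 388 CPM. The log2 fold change of 0.85 (standard error 1.13) became -0.041 without control 2 and 3.57 without control 1. These counts say little of the coding transcript, because 0.816% of them lay in exons given to a protein-coding transcript, 28.1% in retained-intron exons and most of the others (70.0% of all) in an exon of a transcript annotated for nonsense-mediated decay (17550607 to 17551505).

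Chil3, the chitinase-like protein (ENSMUSG00000040809, chromosome 3, 106147554 to 106167564, minus strand), was at 1685 and 511 CPM in controls 1 and 2, and at 6575 and 4331 CPM in knockouts 1 and 2. The groups did not overlap, the lower knockout was at 2.57 times the higher control, and the controls differed 3.30-fold and the knockouts 1.52-fold. The fitted log2 fold change was 2.31 (standard error 0.74), or 3.48 without control 1 and 1.69 without control 2. All 8 exon entries with at least 40 fragments had both knockouts above both controls. Its close relative Chil4 had 15 and 9 fragments in knockouts 1 and 2 and none in the controls, and because fragments that map to several places were not counted, the split between these 2 genes is uncertain.

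Per kilobase of exon covered by a single annotated entry, a rough scale for levels between genes, the mean over the 4 libraries was 2752 CPM for Chil3, 522 for Arg2, 445 for Acod1, 235 for Odc1, 94.97 for Arg1, 70.6 for Ass1, 15.6 for Nos2 and 0.984 for Slc7a2. The ranges over libraries of Arg2 (149 to 1164) and Acod1 (7.45 to 977) overlapped, as did those of Arg1 (4.17 to 265) and Odc1 (26.6 to 352), so neighbours in the middle of this order do not differ beyond their spread. Chil3 was above the 7 others within each library, and Slc7a2 below them. Most exon entries of Slc7a2 and Nos2 could not be counted, and the Odc1 counts say little of its coding transcript. The places of these genes in the order thus do not give their levels.

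The members did not all share 1 profile over the libraries. Likeness was measured as the Euclidean distance between log2(CPM + 1) profiles, each centred on its mean over the 4 libraries, among the tested genes with a mean of at least 5 CPM (9755 others for each member). Arg2 and Chil3 were the closest pair at 0.98, with 94 genes nearer to Arg2 than Chil3 was, and Acod1 and Ass1 were the farthest at 4.85. The nearest genes to Arg2 were Cnot4, the chemokine receptor Ccr1 and Mmp8, neutrophil collagenase (0.34, 0.35 and 0.42). Those nearest to Acod1 were Cd300lf, Gm1966 and Sgms2 (0.42, 0.50 and 0.51), all at 0 in control 2. Those nearest to Arg1 were Cd72, Dok3 and Ptpn22 (0.35, 0.47 and 0.52), also at 0 in control 2. For Nos2 they were Sgms1, 1810026B05Rik and Clec4a4 (0.13, 0.21 and 0.24), for Ass1 Cpsf2, 1110059G10Rik and Gm47021 (0.081, 0.084 and 0.096), for Odc1 Prr14, Tctn3 and Gm47644 (0.076, 0.096 and 0.098) and for Chil3 A430090L17Rik, Pacs2 and Fbxl5 (0.10, 0.21 and 0.23). With 4 libraries these distances are a description.

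Most tested myeloid markers lay higher in knockout than in control libraries beside Acod1, Arg2, Nos2 and Chil3. Of 17 tested macrophage and monocyte markers, out of 18, all 17 had a positive log2 fold change (median 1.47) and 12 had both knockouts above both controls. Over all tested genes 56.9% were positive and 19.5% had both knockouts above both controls. Among the 12, control 1 and knockout 1 were almost equal for C1qb (2886.2 and 2886.8 CPM) and C1qc (1687.6 and 1688.5 CPM). For Cd163 and Ly6c2, also among the 12, retained-intron entries held 100% and 99.9% of the fragments. Tyrobp was at 0 in control 2 and Itgam at 0 in control 2 and knockout 2. Both could hardly be counted, with 98 bases for Tyrobp and 356 for Itgam that lie in a single annotated entry. Lyz2, the lysozyme of myeloid cells, was at 9378 and 3876 CPM in controls and 14351 and 10809 in knockouts. Of 14 neutrophil markers 4 could be tested, 3 of them with both knockouts above both controls. The other, Mmp9, was at 12.9 and 0 CPM in controls and 2.50 and 0.236 in knockouts (log2 fold change -2.22). For S100a8, 1 of the 3, retained-intron entries held 75.8% of the fragments. The list summed to 270 to 406 CPM in controls and 957 to 1761 in knockouts. Ly6g and Mpo were at 0 in all libraries, and Mmp8 led the list at 343 and 231 CPM in controls and 1527 and 643 in knockouts. None of these markers passed the threshold, and the part of cell composition in the members' differences was not tested.

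Relative to the summed macrophage and monocyte markers, 3 of the 7 tested members had both knockouts above both controls, as had 7.66% of all tested genes, and 1 had both below, as had 32.9%. Lyz2, Cd14, C1qa, C1qb and C1qc made up most of that sum in every library, so the scale is largely a ratio to these genes. Acod1 was at 2.09% and 0.177% of that sum in controls 1 and 2 and at 6.82% and 4.92% in knockouts 1 and 2. Chil3 was at 7.41% and 4.63% against 17.5% and 13.2%, and Arg2 at 0.943% and 1.38% against 3.18% and 1.77%. For Nos2 the groups overlapped on this scale (from 0.0326% in control 1 to 0.0818% in knockout 1, with control 2 above both knockouts). Relative to the summed neutrophil markers, 2 of the 7 lay above in both knockouts and 1 below, against 2.73% and 47.0% of all tested genes. Mmp8 alone made up most of this sum in every library, so the scale is largely a ratio to Mmp8. Acod1 (117% and 7.23% against 145% and 169%) and Arg2 (52.8% and 56.6% against 67.9% and 60.7%) were the 2 above, while the groups overlapped for Chil3 (415% and 189% against 373% and 452%). Ass1 lay lower in both knockouts on both scales, at 0.474% and 0.287% of macrophage and monocyte markers against 0.586% and 0.720% in controls.

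**Figure D3:**
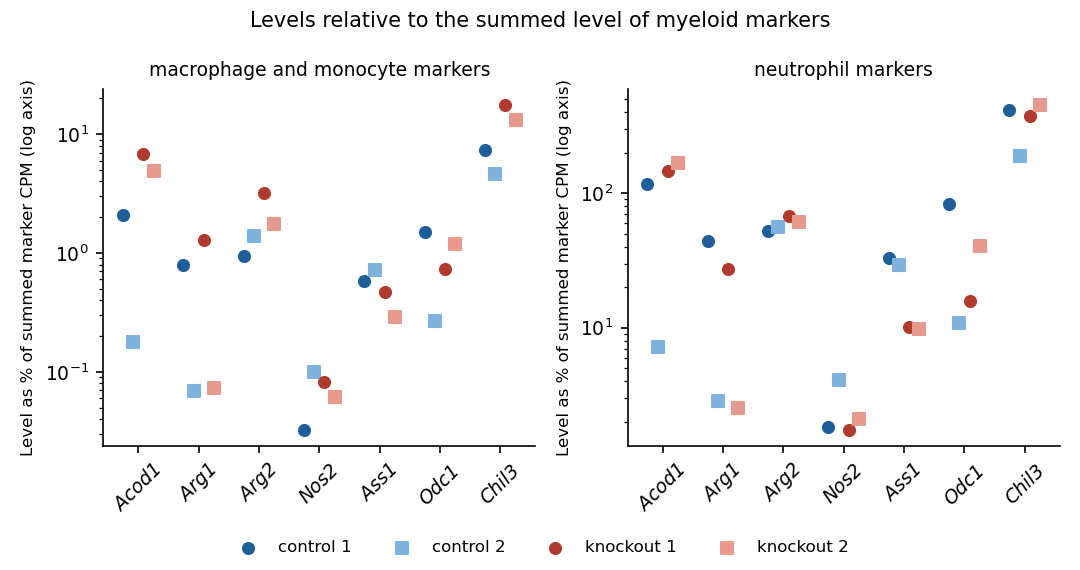
Level of 7 of the genes as a percentage of the summed CPM of macrophage and monocyte markers (left) and of neutrophil markers (right), on log axes, with 1 symbol per library. On the left both knockouts lie above both controls for Acod1, Arg2 and Chil3, and on the right for Acod1 and Arg2.

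Other genes of arginine transport and the urea cycle went both ways. Of 16 listed genes 8 could be tested, none passed the threshold, and their median log2 fold change was 0.58. In both knockouts 3 lay above and 1 below, beside 19.5% and 11.2% of all tested genes. Asl, which completes the rebuilding of arginine after Ass1, was at 19.9 and 7.65 CPM in controls and 33.4 and 57.7 in knockouts. Of the Asl fragments 77.3% lay in retained-intron entries. Slc3a2, the shared heavy chain of several amino acid transporters, was at 132 and 33.0 CPM against 174 and 192. Oat, which turns ornithine toward proline and glutamate, had the highest CPM of the list at 671 and 589 CPM against 695 and 580, a log2 fold change of 0.018. Otc and Cps1, the urea cycle enzymes of liver mitochondria, had no fragment in any library.

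Of 19 polyamine genes 18 could be tested and none passed the threshold. The median log2 fold change was 1.08, and 8 genes lay above and 3 below in both knockouts. Of all tested genes 19.5% lay above and 11.2% below. Smox, which oxidises spermine, was at 36.7 and 31.7 CPM in controls and 100.1 and 71.9 in knockouts. Sat2, a relative of the spermidine acetyltransferase Sat1, was at 5.02 and 30.4 CPM against 0.998 and 4.73. Sat1 itself had the highest CPM of the list, at 779 and 980 CPM against 1699 and 711, so its groups overlapped. Retained-intron entries held 100% of the fragments of Sat1 and of Sat2, and 59.2% of those of Smox. These counts thus say little of the coding transcripts.

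Among 15 genes of the other nitric oxide synthases and their cofactor, 7 could be tested and none passed, with a median log2 fold change of 0.61. Gch1, the first enzyme in the synthesis of tetrahydrobiopterin, the cofactor of Nos2, was at 170 and 87.4 CPM in controls and 349 and 274 in knockouts (log2 fold change 1.27, standard error 0.64). Pcbd1, which recycles the same cofactor in other enzymes' reactions, was at 4.37 and 14.8 CPM against 2.25 and 0. Nos1 had no fragment in any library, and Nos3, the endothelial synthase, had none in the controls and 1 and 18 in knockouts 1 and 2.

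Enzymes and other genes listed around itaconate and the citrate cycle showed a median log2 fold change of 0.044 across 13 tested genes of 18, and none passed the threshold. Nfe2l2 (Nrf2), a transcription factor that itaconate is known to activate, had the highest CPM of the list at 1000 and 576 CPM in controls and 2098 and 1181 in knockouts (log2 fold change 1.06, standard error 0.58). It was the only 1 of the 13 with both knockouts above both controls, beside 19.5% of all tested genes. Without control 2, 3 of the 13 had both knockouts above the remaining control, beside 28.8% of all tested genes. Idh1, the cytosolic isocitrate dehydrogenase, was at 2.40 and 8.45 CPM against 2.50 and 0.236.

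Genes of alternative macrophage activation went both ways beside Chil3 and Arg1. Of 15 listed, 8 could be tested and none passed, with a median of 0.83. In both knockouts 2 lay above and 2 below, beside 19.5% and 11.2% of all tested genes. Chil1, another chitinase-like protein, had 22 and 49 fragments in knockouts 1 and 2 and none in the controls. With 3 fragments set for each control library, the knockout mean was 11.8 times the control mean. This ratio leaves out counting error in the knockouts, so it is not a lower bound. Ccl17, a chemokine made by dendritic cells and alternatively activated macrophages, was at 208 and 96.3 CPM in controls and 36.9 and 30.3 in knockouts (log2 fold change -2.18, standard error 0.81). Tgm2, a transglutaminase, had the highest CPM of the list at 673 and 129 CPM against 1462 and 1151.

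Known regulators of Nos2, Arg1 and Acod1 showed a median log2 fold change of 0.50 across 10 tested genes of 12, none past the threshold. In both knockouts 2 of the 10 lay above, near the share of all tested genes, 19.5%. Irf8, a factor of monocytes and dendritic cells, was at 194 and 53.1 CPM against 308 and 192, so the groups overlapped. Klf4, a factor of monocyte and epithelial differentiation, had the highest CPM of the list at 1129 and 637 CPM against 708 and 984.

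**Figure D4:**
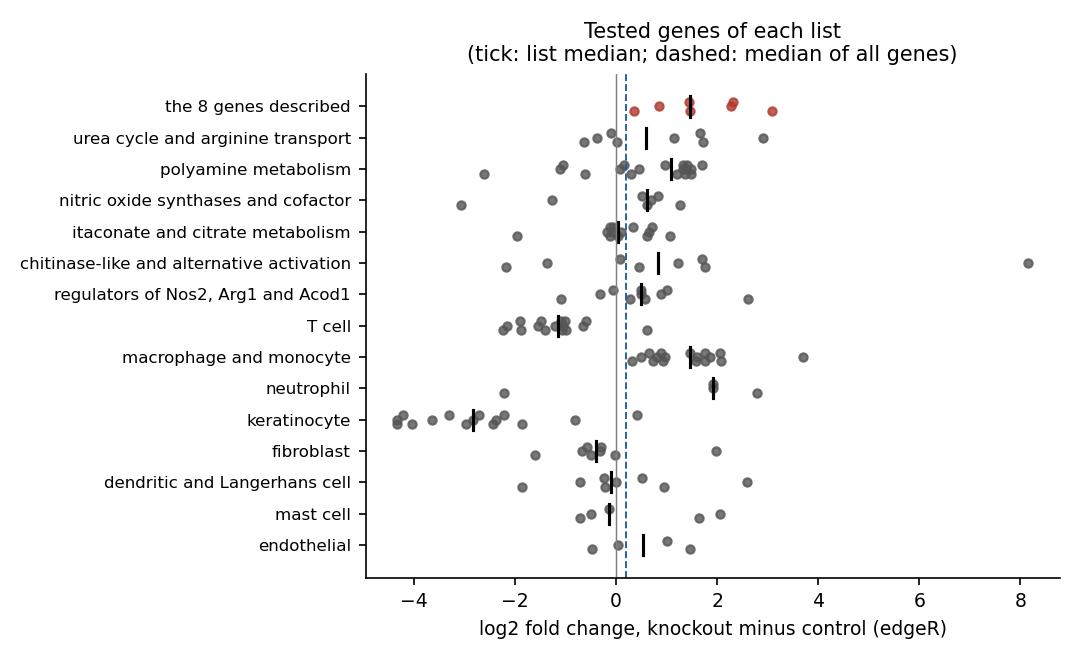
log2 fold change of knockout minus control libraries (edgeR) for every tested gene of the 8 described genes (red) and of each pathway or marker list (grey), with a black tick at each list's median and a dashed line at the median of all genes, 0.20. The 7 red points lie between 0.36 and 3.08, the macrophage and monocyte markers have a median of 1.47 and the T cell markers one of -1.15.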

How the data were processed

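The values are raw fragment counts per annotated exon, as deposited by the authors. Per the file headers, these come from featureCounts 2.0.1 in its exon mode, restricted to non-chimeric pairs with 2 mapped ends, with GENCODE M23 as annotation and GRCm38 as genome. Its command sets no strand and no option for fragments that hit several entries. Trim Galore 0.6.7 and STAR 2.7.9a did the trimming and alignment per the submitters' processing notes. An exon entry repeated in another transcript held 0 fragments, so each gene's counts rest on the exons listed once, and transcript use can move them.

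Counts were summed per gene, version dropped, and 55154 of 55335 identifiers matched a symbol. edgeR 4.0.16 (R 4.3.3) compared the genotypes by its quasi-likelihood test without covariates, after filterByExpr (minimum count 10) and TMM scaling, with Benjamini-Hochberg adjustment at 0.05, two-sided. Standard errors come from the fold change and its F statistic. Alternatives used DESeq2 1.42.0, limma 3.58.1, other scalings and filters, exons outside retained introns (GENCODE M21 transcript types) and each library left out. The members and lists were chosen with earlier results of these data known, and the motifs after the sequences were seen; longer motifs for STAT6 and the interferon response are not shown. Genes named are the 8 members and the 3 genes nearest to each member. Of each pathway list the 2 with the lowest p and the 1 with the highest mean CPM are named. The T cell, macrophage and monocyte, and neutrophil lists give their most abundant gene, with Cd4 and Cd3e for T cells. The most abundant genes of the other marker lists are not reported here. Other genes named from the lists were chosen after their values were seen. They are Otc, Cps1, Nos1, Nos3, Chil4, Itgam, Tyrobp, Ly6g, Mpo, Mmp9, S100a8, Cd14, C1qa, C1qb, C1qc, Cd163 and Ly6c2. One of the pathway-list genes with the lowest p is not reported here.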

Additional observations from a re-analysis of the deposited data

How the results depend on the processing

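The count of genes called was 0 in 7 of the 11 alternatives, and it was 17 with DESeq2 and 27 without a low-count filter. With 1 library left out it lay between 0 and 4, namely 2 without knockout 1 (Xist and Serpinb3d) and 4 without knockout 2 (Igkc, Igkv8-34, Igkv14-111 and Ighv5-17), genes named after their values were seen; the lone library of a genotype is then assumed to vary like the others. Without a low-count filter, 2 members were among the calls of edgeR: Acod1 (log2 fold change 3.10, adjusted p = 0.0096) and Chil3 (2.37, 0.031). Over all alternatives their adjusted p lay between 0.0096 and 1.00 and between 0.031 and 1.00, and no other member was called in any. The direction turned for Arg1 (-1.96) and Ass1 (-0.15) without knockout 1 and for Odc1 (-0.041) without control 2, the lowest values with 1 library left out, while the highest, each without control 1, were 5.12, 0.84 and 3.57. The cause was not tested. Of 77 recomputed fold changes of members, the 72 others kept their direction and their side of the threshold. Leaving out retained-intron exons moved Odc1 to 242 and 24.3 CPM in the controls and to 192 and 283 CPM in the knockouts. Chosen after seeing the data, the count of members with both knockouts above both controls was 4 under both other scalings (19.4% and 21.0% of all tested genes) and between 4 and 7 with 1 library left out (28.8% to 54.5%). It was 3 relative to macrophage and monocyte markers (7.66%) and 2 relative to neutrophil markers (2.73%). No paired analysis was possible because the labels number no replicates. Slc7a2 and Nos2 are limited by depth and by exon entries that share all their bases with others (44 of 49 and 54 of 59).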
